A study of Neurospora crassa with 6 samples.

Results

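Transcript levels of 9 genes that make or remove reactive oxygen species were examined in *N. crassa*, out of 9872 entries in the deposited table. The genes were taken by locus number, and were chosen with earlier results of these data known. They are the NADPH oxidase genes *nox-1* (NCU02110) and *nox-2* (NCU10775), the gene of their regulatory subunit *nor-1* (NCU07850), the catalase genes *cat-1* (NCU08791), *cat-2* (NCU05770), *cat-3* (NCU00355) and *cat-4* (NCU05169), and the superoxide dismutase genes *sod-1* (NCU02133) and *sod-2* (NCU01213). RefSeq gives the same symbol for 9 of the 9 loci. The description of the *sod-2* entry in the deposited table, however, is that of an unnamed protein of another locus, NCU01236. The table annotates *nox-1* and *nor-1* to the development of fruiting bodies, *cat-1*, *cat-2* and *cat-4* to the response to light, and *cat-3* to the hyphal cell wall. The wild type, Δ*mak-1* and Δ*mak-2* were each sampled at 2 stages. Vegetative hyphae came from liquid Vogel's medium shaken for 22 h at 28°C. The protoperithecial stage was taken after 3.5 days at 25°C in darkness, on cellophane over synthetic crossing medium with 0.1% sucrose. The 2 mutants are single-gene deletion strains of mating type a that lack a MAP kinase, MAK-1 of the cell wall integrity pathway or MAK-2 of the pheromone response pathway.

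NADPH oxidases are membrane enzymes that pass electrons from NADPH to oxygen and so make superoxide. Superoxide dismutases turn superoxide into hydrogen peroxide, and catalases break hydrogen peroxide down to water and oxygen. In *N. crassa*, NOX-1 is known to be needed for female structures and NOX-2 for the germination of ascospores. Of the catalases, CAT-1 is abundant in conidia, CAT-3 belongs to growing hyphae and is secreted to the cell wall, and CAT-2 is a bifunctional catalase and peroxidase. SOD-1 is the copper and zinc enzyme of the cytosol and SOD-2 the manganese enzyme of mitochondria.

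Each condition has 1 library, made from the mixed RNA of 3 repeats, so no difference has a replicate check and no p-value is given. The values are RPKM, that is, read numbers corrected for exon length and for the mapped reads of each library, and the reads behind them were recovered from the steps of the values. Mapped reads ranged from 2602076 to 3668046 per library. Ranges in brackets after a ratio are exact (Clopper-Pearson) 95% intervals of the read counts and cover counting error alone and leave out differences between cultures. Following the study's thresholds, a change was called at a ratio over 2 or under 0.5, provided that the level exceeded 10 RPKM in 1 or both of the libraries. "Rose", "fell", "raised" and "lowered" are used for such calls only. Medium, sugar, surface, temperature and culture time changed together with the stage and cannot be told apart from it. Darkness is stated for the protoperithecial cultures only, so a difference in light between the stages is also possible. *mak-2* had no read in either Δ*mak-2* library, and *mak-1* had 50 and 52 reads in the Δ*mak-1* libraries against 255 and 1137 in the wild type. The paper lists no *mak-1* expression in Δ*mak-1*, whereas the deposited values there are 6.39 RPKM in hyphae and 6.08 RPKM at the protoperithecial stage. The protoperithecium markers *app* and *poi-2* summed to 2728 RPKM in the protoperithecial sample of the wild type, against 5.91 RPKM in Δ*mak-1* and 3.47 RPKM in Δ*mak-2*. Both markers of the structure were thus lowered in both mutants, so "protoperithecial stage" names the culture conditions there. RNA came from whole mycelium, in which fewer cells of a type and less RNA per cell cannot be told apart.

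The 9 genes spanned a wide range of levels. *cat-1*, *cat-2*, *cat-3* and both dismutase genes reached at least 389 RPKM in some library, whereas *nox-1*, *nox-2*, *nor-1* and *cat-4* stayed at or below 44.2 RPKM in the 6 libraries. Of the 9 genes, 6 were above 10 RPKM in all libraries. *cat-3* varied most, with 35.3 times between its lowest and highest library, and *cat-1* was next at 15.0 times. *sod-1* varied least, from 256 to 389 RPKM, a factor of 1.52.

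**Figure D1:**
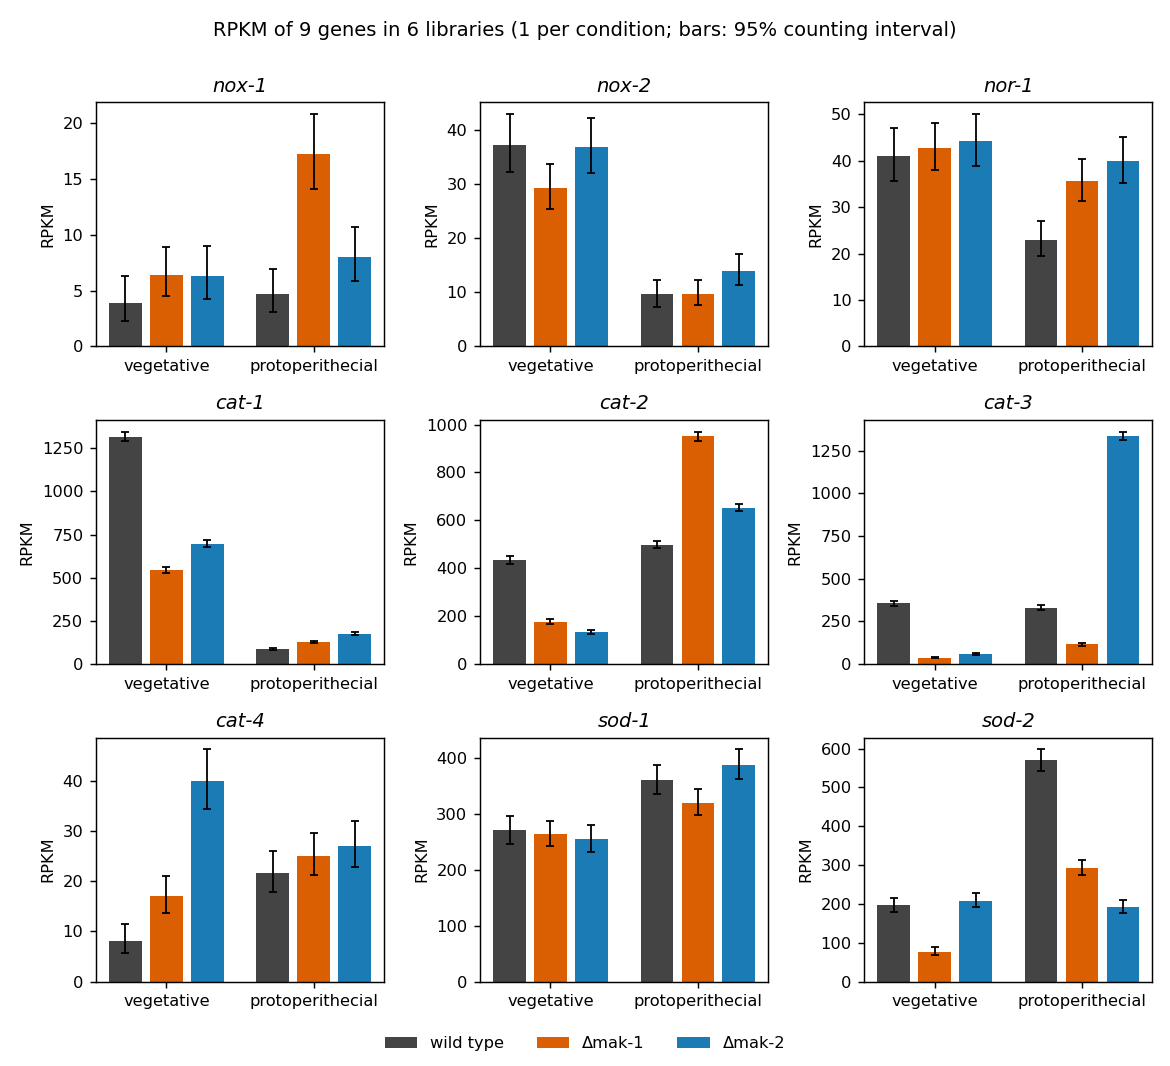
RPKM (linear axis from 0, separate for each gene) of the 9 genes in the wild type (grey), Δ*mak-1* (orange) and Δ*mak-2* (blue) at the 2 stages, 1 library per bar, with exact Poisson 95% counting intervals as error bars. *cat-3* stands at 1338 RPKM in Δ*mak-2* at the protoperithecial stage and at or below 355 RPKM in the other libraries, whereas *sod-1* lies between 256 and 389 RPKM throughout.

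In the wild type, the catalase genes did not move together between stages. *cat-1* had 1318 RPKM in vegetative hyphae (8154 reads) and 87.8 RPKM at the protoperithecial stage (689 reads), and thus fell to 0.0666 times its vegetative level (0.0615 to 0.0720). *cat-2* had 434 and 498 RPKM, a ratio of 1.15 (1.10 to 1.20). *cat-3* had 355 and 331 RPKM, a ratio of 0.933 (0.882 to 0.987). Neither of these passed the threshold, so *cat-1* alone among the abundant catalase genes was far lower at the protoperithecial stage. *cat-4* rose from 8.18 to 21.7 RPKM, at 33 and 111 reads, with a ratio of 2.65 (1.78 to 4.04). Its vegetative level was below 10 RPKM, so it could enter this comparison only through the library where it was high. The deposited table assigns *cat-4* to the peroxisome pathway, as it does *cat-1* and *cat-3*.

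Of the oxidase genes, *nox-2* fell from 37.3 RPKM to 9.59 RPKM in the wild type, a ratio of 0.257 (0.190 to 0.344). *nor-1* had 41.1 and 23.0 RPKM, a ratio of 0.559 (0.449 to 0.694), which is short of the threshold. *nox-1* had 3.93 and 4.74 RPKM, at 17 and 26 reads, with a ratio of 1.21 (0.630 to 2.37). The *nox-1* level thus stayed below 10 RPKM at both stages in the strain that forms protoperithecia, and at this depth its interval covers both a decrease and a 2-fold increase. The *nox-2* level was 9.48 times that of *nox-1* in vegetative hyphae and 2.02 times at the protoperithecial stage. *sod-1* had 271 and 362 RPKM, a ratio of 1.34 (1.19 to 1.51), and *sod-2* rose from 197 to 570 RPKM, a ratio of 2.89 (2.60 to 3.22).

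Altogether 2 of the 9 genes rose and 2 fell in the wild type, with 8 of the 9 above 10 RPKM in either library. Over all 6225 entries above 10 RPKM in either library, 46.5% rose and 10.3% fell, 56.8% in either direction, and the median entry had a ratio of 1.86 (0.90 on the log2 scale), against 1.15 for the median of the 9 genes. Here and below, the median of the 9 genes takes in any below 10 RPKM in both libraries. The median of all entries leaves such entries out, so the sets are not alike. When the libraries were scaled to a common median of ratios, upper quartile or β-tubulin level, the *sod-2* ratio was 1.65, 1.65 and 1.97, and that of *cat-4* was 1.51 under the first of them. Neither passed the threshold under any of the 3. The decreases of *nox-2* (0.146 to 0.175) and *cat-1* (0.0379 to 0.0452) became larger, and *nor-1* passed the threshold as well, with ratios of 0.318 to 0.379. The uncalled ratio of *sod-1* turned to the other side of 1 (0.759 to 0.907), as did those of *cat-2* (0.653 to 0.780) and *nox-1* (0.685 to 0.819), and that of *cat-3* became 0.530 to 0.634.

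The 2 mutants differed from the wild type already in vegetative hyphae, and mainly in the catalase genes. *cat-3* had 355 RPKM in wild type, 37.9 RPKM in Δ*mak-1* and 60.9 RPKM in Δ*mak-2*, with ratios to the wild type of 0.107 (0.0947 to 0.120) and 0.171 (0.154 to 0.190). *cat-2* had 434, 177 and 135 RPKM, ratios of 0.409 (0.385 to 0.434) and 0.312 (0.291 to 0.335). *cat-1* had 1318, 545 and 698 RPKM. Its ratio of 0.413 (0.398 to 0.429) in Δ*mak-1* was called, and that of 0.529 (0.511 to 0.549) in Δ*mak-2* was just short of the threshold, which it passed at 0.487 when scaled to the upper quartile. The 3 abundant catalase genes thus lay below the wild type in both mutants at this stage. *cat-4* lay on the other side. It had 8.18 RPKM in wild type, 17.1 RPKM in Δ*mak-1* and 40.0 RPKM in Δ*mak-2*, with ratios of 2.09 (1.39 to 3.22) and 4.90 (3.36 to 7.33). The call in Δ*mak-1* was lost under each of the 3 scalings (ratios of 1.41 to 1.59), and that in Δ*mak-2* was kept. The unscaled wild-type level of *cat-4* was below 10 RPKM. The gene could thus enter both comparisons only through the mutant library, and could be called raised but not lowered.

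In vegetative hyphae *sod-2* was lowered in Δ*mak-1* only, with 77.1 RPKM against 197 in the wild type and 208 in Δ*mak-2*. Its ratios to the wild type were 0.392 (0.332 to 0.461) and 1.06 (0.930 to 1.21), and Δ*mak-2* had 2.70 times the level of Δ*mak-1* (2.30 to 3.18). *sod-1* had 271, 264 and 256 RPKM, and the intervals of both ratios, 0.859 to 1.11 and 0.825 to 1.08, hold 1. *nox-2* and *nor-1* were not called in either mutant at this stage, and *nox-1*, below 10 RPKM in the 3 libraries, could not be. *nox-2* had 37.3, 29.3 and 36.8 RPKM, *nor-1* had 41.1, 42.8 and 44.2 RPKM, and *nox-1* had 3.93, 6.45 and 6.30 RPKM. Their ratios to the wild type ranged from 0.787 to 1.64.

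In vegetative hyphae 4 of the 9 genes were lowered and 1 raised in Δ*mak-1*, where 6.77% of 5320 entries were lowered and 18.5% raised (25.2% in either direction). In Δ*mak-2* 2 were lowered and 1 raised, where 6.41% of 4917 entries were lowered and 7.26% raised (13.7% in either direction). The median ratio of the 9 genes was 0.787 in Δ*mak-1* and 0.988 in Δ*mak-2*, beside 1.33 and 1.08 for all entries. The medians of the 9 genes include *nox-1*, below 10 RPKM in the libraries compared, whereas those of all entries leave such entries out. The ratios of the 2 mutants share 1 wild-type library and are not independent of each other. The conidium markers *con-6*, *con-8*, *con-10* and *eas* did not move together in hyphae. They had 64.5, 1431, 106 and 703 RPKM in the wild type, 4.05, 104, 3.70 and 2504 RPKM in Δ*mak-1*, and 15.3, 1701, 13.6 and 47036 RPKM in Δ*mak-2*. Their part in the lower *cat-1* level was not tested.

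**Figure D2:**
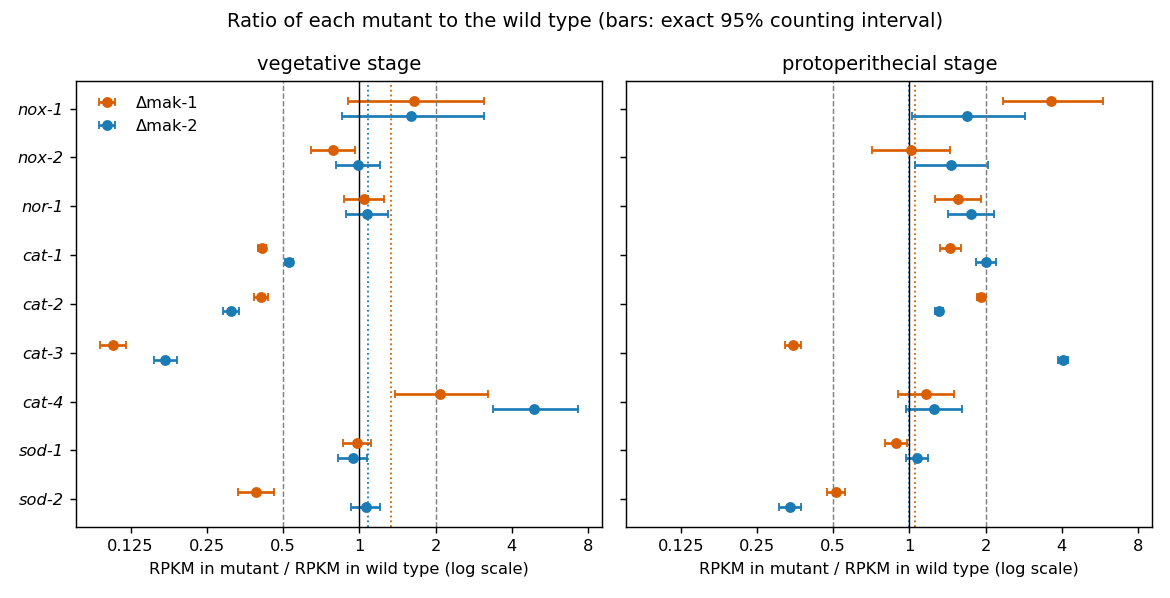
Ratio of RPKM in each mutant to the wild type (log axis) for the 9 genes, in vegetative hyphae (left) and at the protoperithecial stage (right), with exact 95% counting intervals. Dashed grey lines mark 0.5 and 2, dotted lines the median of all entries above 10 RPKM in each comparison. *cat-3* is left of 0.5 in both mutants in vegetative hyphae, and at the protoperithecial stage Δ*mak-1* lies at 0.346 and Δ*mak-2* at 4.04.

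At the protoperithecial stage, *cat-3* separated the 2 mutants. It had 331 RPKM in wild type (2721 reads), 115 RPKM in Δ*mak-1* (1047 reads) and 1338 RPKM in Δ*mak-2* (11226 reads). The wild type thus lay between the mutants. The gene was lowered in Δ*mak-1*, at 0.346 times the wild-type level (0.322 to 0.372), and raised in Δ*mak-2*, at 4.04 times (3.87 to 4.21). Set directly against each other, Δ*mak-2* had 11.7 times the level of Δ*mak-1* (10.9 to 12.4). In vegetative hyphae that ratio was 1.60 (1.38 to 1.86), and 2.83 when scaled to β-tubulin.

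The other catalase genes were closer to the wild type. *cat-1* had 87.8 RPKM in wild type, 127 RPKM in Δ*mak-1* and 176 RPKM in Δ*mak-2*. Its ratio of 1.45 (1.32 to 1.60) in Δ*mak-1* was not called. That of 2.01 (1.83 to 2.20) in Δ*mak-2* passed narrowly, and scaling by the median of ratios brought it to 1.98. *cat-2* had 498, 952 and 653 RPKM, with ratios of 1.91 (1.84 to 1.98) and 1.31 (1.26 to 1.36), and *cat-4* had 21.7, 25.1 and 27.2 RPKM, with ratios of 1.16 and 1.25 whose intervals hold 1. None of these 4 ratios passed the threshold. The conidium markers *con-6*, *con-8*, *con-10* and *eas* summed to 900 RPKM in the wild type at this stage, 15786 RPKM in Δ*mak-1* and 17021 RPKM in Δ*mak-2*, and 4 of 4 were raised in each. In vegetative hyphae their sums were 2305, 2616 and 48766 RPKM, the last almost wholly *eas* (47036 RPKM), and none of them was at 0 in any library. Their part in the levels of the catalase genes was not tested.

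*nox-1* was raised in Δ*mak-1*, with 17.2 RPKM (105 reads) against 4.74 RPKM in the wild type (26 reads), a ratio of 3.63 (2.35 to 5.82). It had 8.03 RPKM in Δ*mak-2* (45 reads), a ratio of 1.69 (1.02 to 2.86). This Δ*mak-1* library is the only one of the 6 in which *nox-1* exceeded 10 RPKM, so the gene could enter the comparison only through the library where it was high. *nor-1* had 23.0, 35.7 and 40.0 RPKM, ratios of 1.55 (1.26 to 1.92) and 1.74 (1.42 to 2.15). *nox-2* had 9.59, 9.72 and 14.0 RPKM, ratios of 1.01 (0.712 to 1.45) and 1.46 (1.05 to 2.04). *nor-1* was thus called in neither mutant. *nox-2* in Δ*mak-1* and *nox-1* in Δ*mak-2* were below 10 RPKM in both libraries compared and could not be called in either direction. The ratio of *nox-2* in Δ*mak-1* lay on either side of 1 depending on the scaling (0.943 to 1.06). In Δ*mak-1* at this stage the level of *nox-2* was 0.564 times that of *nox-1*, the only library where *nox-1* was the higher of the pair.

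*sod-2* was lowered in Δ*mak-2*, with 193 RPKM against 570 RPKM in the wild type, a ratio of 0.338 (0.307 to 0.373). In Δ*mak-1* it had 294 RPKM, a ratio of 0.515 (0.475 to 0.559), which scaling by the median of ratios brought to 0.479 and thus past the threshold. *sod-1* had 362, 321 and 389 RPKM, ratios of 0.885 (0.799 to 0.982) and 1.07 (0.972 to 1.19). *sod-2* was therefore below the wild type in both mutants, whereas *sod-1* was not called. NCU09560, also described as a mitochondrial superoxide dismutase precursor, had 612, 420 and 499 RPKM. Its ratios of 0.686 (0.635 to 0.740) and 0.815 (0.756 to 0.878) lay below 1 as well, but were not called.

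At the protoperithecial stage 1 gene was raised and 1 lowered in Δ*mak-1*, where 11.0% of 6418 entries were raised and 8.35% lowered (19.4% in either direction). In Δ*mak-2* 2 were raised and 1 lowered, where 8.56% of 6305 entries were raised and 10.7% lowered (19.3% in either direction). The median ratios of the 9 genes were 1.16 and 1.46, beside 1.05 and 0.998 for all entries. The former include *nox-2* in Δ*mak-1* and *nox-1* in Δ*mak-2*, below 10 RPKM in both libraries compared. The latter leave such entries out. Between the mutants, *cat-3* was higher and *nox-1* lower in Δ*mak-2* at this stage, where 10.4% of 6292 entries were called (3.05% higher and 7.31% lower). In vegetative hyphae *cat-4* and *sod-2* were higher in Δ*mak-2* and none was lower, where 22.3% of 5282 entries were called (6.51% higher and 15.8% lower).

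The change between stages was also compared within each strain. *nox-2* fell in the 3 strains, with ratios of 0.257 in the wild type, 0.332 (0.249 to 0.437) in Δ*mak-1* and 0.380 (0.295 to 0.488) in Δ*mak-2*. *cat-1* also fell in each strain, to 0.233 times (0.218 to 0.249) and 0.253 times (0.238 to 0.268) the vegetative level in the mutants. The mutants' decrease was smaller than the 0.0666 times of the wild type, since their vegetative levels were lower and their later levels higher.

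*cat-2* and *cat-3* rose in the mutants and not in the wild type. *cat-2* rose 5.37-fold (5.09 to 5.66) in Δ*mak-1*, or 3.73-fold to 5.64-fold when scaled, and 4.83-fold (4.52 to 5.16) in Δ*mak-2*, or 2.78-fold to 3.05-fold when scaled. *cat-3* rose 3.02-fold (2.66 to 3.44) in Δ*mak-1*, or 2.11-fold to 3.18-fold when scaled, and 22.0-fold (19.98 to 24.26) in Δ*mak-2*, or 12.7-fold to 13.9-fold when scaled. The 22.0-fold rise started from 60.9 RPKM, below the 355 RPKM of the wild type, and ended at 1338 RPKM, above its 331 RPKM. *sod-2* rose in the wild type, a call lost when scaled (1.65 to 1.97), and 3.81-fold (3.28 to 4.43) in Δ*mak-1*, still called at 2.65-fold or more when scaled. In Δ*mak-2* it had a ratio of 0.925 (0.819 to 1.04), or 0.532 to 0.584 when scaled. *nox-1* rose 2.67-fold (1.81 to 4.02) in Δ*mak-1*, a call lost with 2 of the 3 scalings (1.86 and 1.96), and had a ratio of 1.28 (0.786 to 2.10) in Δ*mak-2*, or 0.734 to 0.806 when scaled. *cat-4* was not called between the stages of either mutant, with ratios of 1.47 (1.12 to 1.94) and 0.678 (0.540 to 0.850), and the second fell past the threshold when scaled (0.390 to 0.429). The differences between strains in these stage ratios were not tested, since each strain has 1 library per stage.

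In Δ*mak-1* 4 of the 9 genes rose and 2 fell between its stages, where 32.6% of 6359 entries rose and 9.48% fell (42.1% in either direction), and in Δ*mak-2* 2 rose and 2 fell, where 41.4% of 6103 entries rose and 9.41% fell (50.8% in either direction). The median ratios of all entries were 1.42 and 1.69, and those of the 9 genes 1.47 and 0.925. In Δ*mak-2* the median of the 9 genes includes *nox-1*, below 10 RPKM at both stages.

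**Figure D3:**
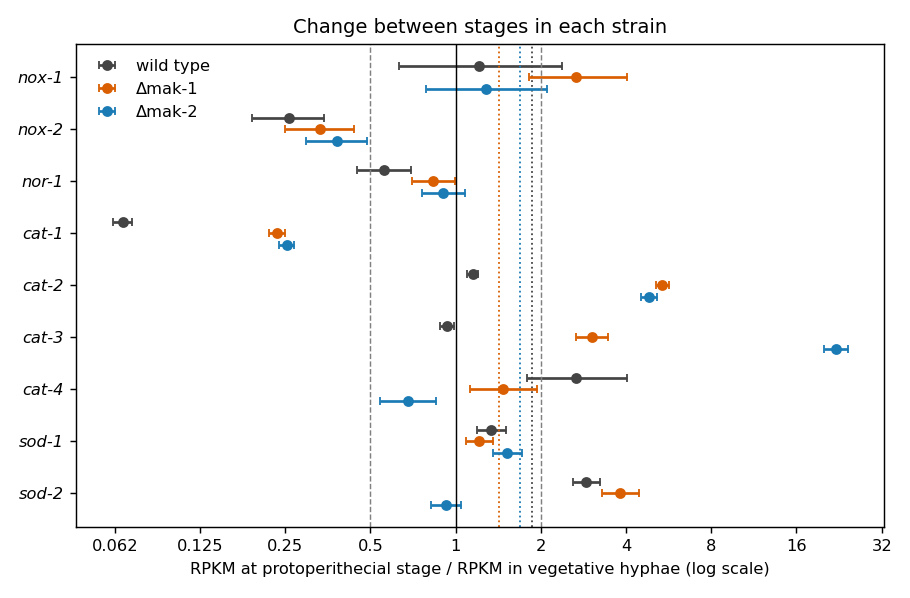
Ratio of RPKM at the protoperithecial stage to vegetative hyphae (log axis) for the 9 genes in the wild type (grey), Δ*mak-1* (orange) and Δ*mak-2* (blue), with exact 95% counting intervals. Dashed grey lines mark 0.5 and 2 and dotted lines the median of all entries in each strain. *nox-2* and *cat-1* lie left of 0.5 in the 3 strains, whereas *cat-3* lies at 0.933 in the wild type, 3.02 in Δ*mak-1* and 22.0 in Δ*mak-2*.

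The make-up of the catalase transcripts differed between the libraries. *cat-1* held 62.3% of the summed RPKM of the 4 catalase genes in wild-type vegetative hyphae, 70.1% in Δ*mak-1* and 74.7% in Δ*mak-2*, and between 8.03% and 10.4% in the 3 libraries of the protoperithecial stage. At that stage *cat-2* held the largest share in the wild type (53.1%) and in Δ*mak-1* (78.1%), whereas *cat-3* held the largest share in Δ*mak-2* (61.0%). The summed level was 2115 RPKM in wild type, 777 RPKM in Δ*mak-1* and 934 RPKM in Δ*mak-2* in vegetative hyphae. At the protoperithecial stage it was 939, 1219 and 2195 RPKM, so that the wild type had the highest sum in hyphae and the lowest at the protoperithecial stage. Of the summed RPKM of *sod-1* and *sod-2*, *sod-2* made up 42.1% in wild-type hyphae and 61.1% at the protoperithecial stage. It made up 22.6% and 47.8% in Δ*mak-1*, and 44.9% and 33.1% in Δ*mak-2*. NCU09560, also described as a superoxide dismutase, was not counted in these shares. It had 511 and 612 RPKM in the wild type, more than either gene.

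**Figure D4:**
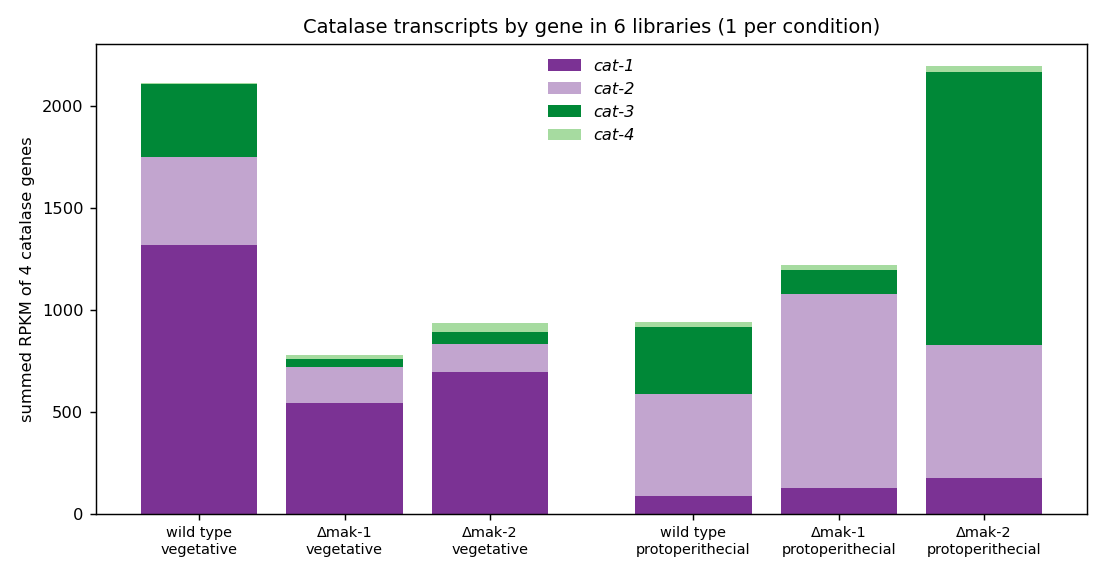
Summed RPKM of the 4 catalase genes (linear axis from 0), stacked by gene, in the 6 libraries, 1 per condition. *cat-1* makes up most of the sum in the 3 vegetative libraries (62.3% to 74.7%), and *cat-3* makes up 61.0% of it in Δ*mak-2* at the protoperithecial stage.

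Genes that work with these enzymes were taken from lists drawn up by locus or annotation, and their counts stand beside the shares of all entries given above. Those shares are unscaled. The share of all entries under the scalings was not computed, so scaled list counts have no such share beside them. The partner list holds *rac-1*, which encodes the small GTPase that activates NADPH oxidases, *cdc-42*, its exchange factor gene *cdc-24*, and NCU06593, to which RefSeq gives no symbol. Of these 4, 2 rose in the wild type, *rac-1* from 56.3 to 172 RPKM (3.05-fold, 2.41 to 3.91) and NCU06593 from 10.4 to 28.0 RPKM (2.68-fold, 1.93 to 3.80). The median ratio of the 4 was 1.97, beside 1.86 for all entries. Under the 3 scalings *rac-1* had 1.74, 1.74 and 2.07 and NCU06593 1.53, 1.53 and 1.82, so that only *rac-1* with β-tubulin was still called. In vegetative hyphae NCU06593 was also raised in Δ*mak-1*, to 22.7 RPKM (2.18-fold, 1.55 to 3.10), a call lost under each scaling (1.46 to 1.66), and none was called in Δ*mak-2*. None was called in either mutant at the protoperithecial stage, with median ratios of 0.954 and 0.999 to the wild type, while *nox-1* was raised in Δ*mak-1*.

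Of 9 thiol and peroxidase entries, 3 rose and 1 fell in the wild type (median ratio 1.40), or 1 to 2 and 1 to 2 when scaled, and 1 was raised and none lowered in each mutant at the protoperithecial stage. The one that fell and was then raised in the mutants is NCU09534, described as peroxiredoxin HYR1. It had 513 RPKM in wild-type hyphae and 182 RPKM at the protoperithecial stage, and 791 RPKM in Δ*mak-1* and 644 RPKM in Δ*mak-2* at that stage. Its ratios to the wild type were 4.35 (3.90 to 4.85) and 3.54 (3.16 to 3.97). In vegetative hyphae it lay below the wild type in both mutants, with 272 RPKM in Δ*mak-1* and 168 RPKM in Δ*mak-2*. The ratio of 0.531 (0.478 to 0.590) in Δ*mak-1* was called only when scaled (0.357 to 0.405). That of 0.327 (0.287 to 0.372) in Δ*mak-2* was called.

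The deposited table annotates 24 other entries to the response to oxidative stress, 4 of them thiol entries of the list before. Of these, 14 rose and 1 fell in the wild type (19 entries above 10 RPKM, median ratio 2.85 beside 1.86 for all entries). When scaled, 4 to 8 rose and 2 fell, and the share of all entries under the same scalings was not computed. At the protoperithecial stage 1 was raised and 2 lowered in Δ*mak-1*, and 2 were raised and 2 lowered in Δ*mak-2*. The lowered genes in both were *prk-3*, with 32.3 and 42.4 RPKM in the mutants against 109 RPKM in the wild type, and NCU04990, a protein kinase gene that the study names *stk-17*, with 13.6 RPKM and 6.48 and 5.90 RPKM. Besides NCU09534, NCU01906 was raised in Δ*mak-2*, with 139 RPKM against 63.3 RPKM. In vegetative hyphae *prk-3* lay on the other side, with 105 RPKM in Δ*mak-1* against 46.8 RPKM in the wild type. That ratio of 2.25 (1.86 to 2.73) was called, but not under any scaling (1.51 to 1.72). In Δ*mak-2* the *prk-3* ratio in hyphae was 1.49 (1.21 to 1.84), which was not called.

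Of 3 entries described as NADPH-forming dehydrogenases of the pentose phosphate pathway or as similar to them, 2 rose in the wild type, *ppm-2* (6-phosphogluconate dehydrogenase) 3.67-fold (3.44 to 3.93) and NCU09111 (glucose-6-phosphate dehydrogenase) 2.70-fold (2.43 to 3.01). When scaled, *ppm-2* was still called (2.09 to 2.50) and NCU09111 was not (1.54 to 1.84). At the protoperithecial stage none was called in Δ*mak-1* and NCU00837 was lowered in Δ*mak-2*, at 0.462 times the wild-type level (0.341 to 0.621). A further superoxide dismutase entry, NCU09560, described as a mitochondrial precursor, had between 420 and 612 RPKM in the 6 libraries and was not called in any unscaled comparison. When scaled to β-tubulin, it was called higher in Δ*mak-2* than in Δ*mak-1* in vegetative hyphae. *con-6* also carries a catalase description in the deposited table, which goes against its symbol, so it was not counted as a catalase gene. A similar mismatch was seen for *het-6*, a heterokaryon incompatibility gene listed as glutathione reductase, which is 1 of the 3 thiol entries that rose in the wild type and was not called there when scaled.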

How the data were processed

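RNA of 6 conditions, mixed from 3 repeats into 1 library each, was sequenced single-end on an Illumina platform. The authors deposited RPKM values. CASAVA 1.8 is named in the submitters' notes on processing. Aligner, counting tool and build: not given in the sources used here. Deposited quotients between libraries are the authors' own comparisons and were not used. Mapped reads per library (2602076 to 3668046) and reads per gene were recovered from the RPKM steps. All 8913 entries detected in 2 or more libraries came out whole, to 1e-08 of the read number or 1e-05 reads, and the method was tested on simulated data. Whether counting used strand is not given, and none of 33 neighbours examined had a RefSeq NC12 gene model that overlaps one of the 9 genes. RefSeq symbols were matched by locus tag, *mak-1* by an old locus tag.

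There were 9 comparisons of 2 libraries each. The planned test was a ratio with a call and no p-value. The 9 genes and the lists were chosen with earlier results of these data known. Genes named beyond the 9 are those of the lists, the 2 highest and 2 lowest called ratios of each list in the mutants at the protoperithecial stage, the 3 entries nearest in pattern to *nox-1*, *nox-2*, *nor-1* and *cat-3*, and markers; others were chosen after their values were seen. Product names and sequences were not used here, so list words were searched in the deposited descriptions only and the planned search for promoter motifs was not run. Alternatives were 3 scalings, fold thresholds of 1.5 and 3, no RPKM minimum or one of 20, 1 RPKM added, and the whole counting interval beyond the threshold. Computations used scipy 1.17.1, pandas 2.3.3 and numpy 2.4.6 under Python 3.11.15, and plots matplotlib 3.10.9.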

Additional observations from a re-analysis of the deposited data

Results flagged for a closer look

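*cat-3* was called in opposite directions in the 2 mutants at the protoperithecial stage, with ratios to the wild type of 0.346 for Δ*mak-1* and 4.04 for Δ*mak-2*. Each value rests on 1 library, and the difference between the mutants was not tested.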

How the results depend on the processing

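The scalings of the lists of related genes were chosen after seeing the data. They left the counts of list entries called in either mutant at the protoperithecial stage as they were. No called ratio of the 9 genes changed direction under the 3 scalings or with 1 RPKM added, and 16 of the 31 calls were kept under each of the 9 alternatives, those of *cat-3* among them except the decrease in Δ*mak-1* at the protoperithecial stage, which a fold threshold of 3 removed. In the wild type the number of genes that rose went from 2 to 0 with the median of ratios, the upper quartile, β-tubulin and a fold threshold of 3, and to 1 where both ends of the counting interval had to pass (the interval requirement). In vegetative hyphae the 1 gene raised in Δ*mak-1*, *cat-4*, was lost (0 left) with each scaling, a fold threshold of 3, an RPKM minimum of 20, 1 RPKM added and the interval requirement. The 4 lowered there became 1 with a fold threshold of 3. At the protoperithecial stage Δ*mak-1* had 0 genes raised with an RPKM minimum of 20 and 3 with a fold threshold of 1.5. It had 2 lowered with the median of ratios and with a fold threshold of 1.5, and 0 with a fold threshold of 3. The 2 genes raised in Δ*mak-2* became 1 with the median of ratios, a fold threshold of 3, 1 RPKM added and the interval requirement, and the 1 lowered became 0 with a fold threshold of 3. The 2 genes that fell between stages in Δ*mak-2* became 1 with a fold threshold of 3. In Δ*mak-2* against Δ*mak-1*, the 2 higher in vegetative hyphae became 5 with β-tubulin, 0 with a fold threshold of 3 and 1 with the interval requirement. The 1 lower at the protoperithecial stage, *nox-1*, became 2 with a fold threshold of 1.5 and 0 with a fold threshold of 3, an RPKM minimum of 20 and the interval requirement. The cause of these changes was not tested beyond the settings' own construction. No paired analysis was possible because each condition has 1 library. *nox-1*, at 17 to 105 reads, and *cat-4*, at 33 to 178 reads, were limited most by depth.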

Other observations

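Next to *sod-2* on the NC12 assembly lies NCU01212, which was chosen after its values were seen. It had 2.46 RPKM in wild-type hyphae and 997 RPKM at the protoperithecial stage, against 433 RPKM in Δ*mak-1* and 209 RPKM in Δ*mak-2* at that stage, at 2061, 995 and 442 reads, with ratios to the wild type of 0.434 (0.402 to 0.469) and 0.210 (0.189 to 0.233). The order of the 3 strains was that of *sod-2* at this stage (570, 294 and 193 RPKM), although in hyphae the levels of NCU01212 were 7.61 RPKM in Δ*mak-1* and 7.80 RPKM in Δ*mak-2*. *cat-2* lies 2 genes from *poi-2*, the protoperithecium marker, which went from 1.81 to 2072 RPKM between stages in the wild type, where *cat-2* had a ratio of 1.15.

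Among 6712 entries above 10 RPKM in some library, those nearest in pattern were sought by the root mean square difference of log2(RPKM + 1) over the 6 libraries, each gene centred on its own mean. For *nor-1* they were NCU03827 (difference 0.09), NCU09079 (0.11) and NCU02905, a gene of ribosomal protein L23 (0.12). For *nox-2* they were NCU07424 (0.11), *aro-8* (0.15) and NCU08298 (0.18), and for *nox-1* NCU04735 (0.15), NCU03968 (0.19) and NCU07952 (0.20). *cat-3* had no such close match, and its nearest entries NCU09702, NCU06731 and NCU05070 were at 0.82, 0.82 and 0.85. The difference is not corrected for range and tends to be larger for genes that vary widely. *cat-3* varied 35.3 times between libraries, and *nor-1*, *nox-2* and *nox-1* at most 4.38 times. Whether the *cat-3* pattern is distinct was not tested. The differences are a description over 6 libraries that share strains and media.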
